A study of Mus musculus with 11 samples.

Results

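The urea cycle and its periportal nitrogen supply were followed in whole livers of mice in which YAP was switched on in hepatocytes. The set comprises 9 genes, chosen by name: the 6 enzymes of the pathway (Nags, Cps1, Otc, Ass1, Asl and Arg1), the mitochondrial carriers Slc25a15 and Slc25a13, and the liver glutaminase Gls2. All 9 were found among the 20893 rows of the deposited table, and all 9 were among the 14244 genes that passed the filter on low values (at least 0.5 eRPKM in at least 3 livers). eRPKM counts the exon reads of a gene for each kilobase of its length, scaled to the size of its library. It is a share of the reads of a liver and not an amount of RNA per cell.

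The 11 C57BL/6 mice gave 1 liver library each. All carried a ROSA26-rtTA-IRES-EGFP allele, in which the doxycycline-dependent activator rtTA is silent until Cre recombinase removes a stop element, and were crossed with albumin-Cre mice, so that rtTA is made in cells of the hepatocyte lineage. The 4 control livers were WT for the YAP transgene and received doxycycline food for 7 days. The other livers carried tetYAP, a doxycycline-driven YAP with the activating S127A change, and received doxycycline food for 3 days (4 livers) or for 7 days (3 livers). Ages were not given for these mice in the sources used here, and no control was listed at 3 days. The comparisons ask how the liver transcriptome changes early after YAP is turned on.

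The urea cycle turns ammonia, a toxic product of amino acid breakdown, into urea. Its first steps run inside mitochondria and its later steps in the cytosol, with ornithine and citrulline passing between the compartments. In the liver the pathway is densest in periportal hepatocytes, which receive blood first, while a thin rim of pericentral hepatocytes captures the remaining ammonia by making glutamine. YAP is the transcriptional coactivator at the end of the Hippo pathway and acts with TEAD factors.

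The libraries held 1250344 to 5932220 reads on genes, recovered from the eRPKM values, with up to 5490228 in controls. The 3-day libraries had 2658866 to 3677567 and the 7-day libraries 5306852 to 5932220. The YAP targets Cyr61 and Ctgf rose at 7 days by 3.27 and 3.49 on the log2 scale, as a check of the labels, while Yap1 itself ranged from 13.9 to 21.1 eRPKM over all 11 livers. At 3 days Cyr61 stood higher by 1.99 (limma adjusted p = 0.0117) and Ctgf by 1.41 (limma adjusted p = 0.0833), neither under 0.01. By Xist against Ddx3y, 2 controls, 2 livers at 3 days and all 3 livers at 7 days were female. Over the 14244 tested genes the median log2 fold change was 0.018 at 3 days and 0.26 at 7 days, so changes at 7 days are relative to a shifted middle. Over the 2916 genes with a mean of at least 30 eRPKM, a range that holds all 9 members, the 7-day median was -0.22. Over all 14244 tested genes the 7-day median was 0.025 with median-ratio size factors and -0.058 after quantile normalization. For the 2916 genes it is not given under these scalings. Nothing in the labels ties livers to litters or days, so the p-values measure the spread between these livers. The column labels of 3-day livers 1 and 4 and of 7-day liver 2 end in MF, and do not say what it means. At 3 days Cyr61 had 26.8 and 27.5 eRPKM in the MF livers and 48.3 and 53.4 in the others. At 7 days it had 91.1 in the MF liver and 91.3 and 90.5 in the others. What the suffix stands for was not tested.

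Promoter sequences of 5 of the 9 genes were available from RefSeq (GRCm38.p6). Those of Otc and Ass1, a pair that fell at 7 days, and of Nags, which did not, are shown because they differ widely in base composition. Each runs 5′ to 3′ over the 250 bases before the annotated start, with CpG dinucleotides in capitals. The positions are chrX:10252055-10252304 (plus strand) for Otc, chr2:31470020-31470269 (plus strand) for Ass1 and chr11:102145263-102145512 (plus strand) for Nags.
Otc: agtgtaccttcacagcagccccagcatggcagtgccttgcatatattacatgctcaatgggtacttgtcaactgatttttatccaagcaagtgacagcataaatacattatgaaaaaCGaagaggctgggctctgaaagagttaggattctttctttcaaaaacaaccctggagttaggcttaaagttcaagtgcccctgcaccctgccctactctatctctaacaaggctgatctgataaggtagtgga
Ass1: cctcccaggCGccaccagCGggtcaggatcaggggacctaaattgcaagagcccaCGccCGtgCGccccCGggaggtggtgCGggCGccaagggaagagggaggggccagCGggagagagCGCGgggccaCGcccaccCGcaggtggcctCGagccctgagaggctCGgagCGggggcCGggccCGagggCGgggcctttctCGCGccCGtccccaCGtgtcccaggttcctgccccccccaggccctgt
Nags: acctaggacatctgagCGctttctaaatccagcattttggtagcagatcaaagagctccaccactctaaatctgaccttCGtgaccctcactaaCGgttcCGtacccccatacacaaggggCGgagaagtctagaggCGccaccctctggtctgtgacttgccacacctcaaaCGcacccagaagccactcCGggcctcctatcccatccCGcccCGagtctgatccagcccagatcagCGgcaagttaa

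The Otc promoter held 1 CpG and 43.6% G or C, the Ass1 promoter 23 CpGs and 75.6%, and the Nags promoter 11 CpGs and 55.6%. Over the 32851 promoters of the table the median was 6 CpGs and 52.4%. As many as 23 CpGs were found in 13.3% of all promoters, and 1 or none in 18.8%. The Slc25a13 promoter held 11 CpGs, and the promoters at the 2 starts of Slc25a15 held 11 and 43. No copy of 5 motifs was found on either strand in these 250-base windows of the 5 genes. The motifs were GGAATG (TEAD, held by 12.6% of all promoters), TATAAA (the TATA box, 12.4%), TGACGTCA (CREB, 1.55%), CAAAGTCCA (HNF4A, 0.384%) and TTGCGCAA (C/EBP, 0.164%). Of the 5 genes, the called ones thus spanned 1 to 43 CpGs, and the uncalled Nags and Slc25a13 held 11 each. Cps1, Asl, Arg1 and Gls2 were the members with no entry.

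At 7 days of YAP induction, 5 of the 9 genes fell (Gls2, Otc, Ass1, Slc25a15 and Asl), by 2.12-fold to 3.21-fold, and none rose. Of all tested genes 5.77% were called lower and 18% higher. Of those with a mean of at least 30 eRPKM, 19% were called lower. Cps1 and Arg1 were the most abundant members in controls and fell short of the threshold, as did Slc25a13. Nags, the enzyme that makes the activator of Cps1, stood slightly higher in 7-day livers than in controls. At 3 days none of the 9 passed. The plot of each liver shows these patterns, with the 7-day points below every control in 8 of the 9 panels. The same held for 13.3% of all tested genes.

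**Figure D1:**
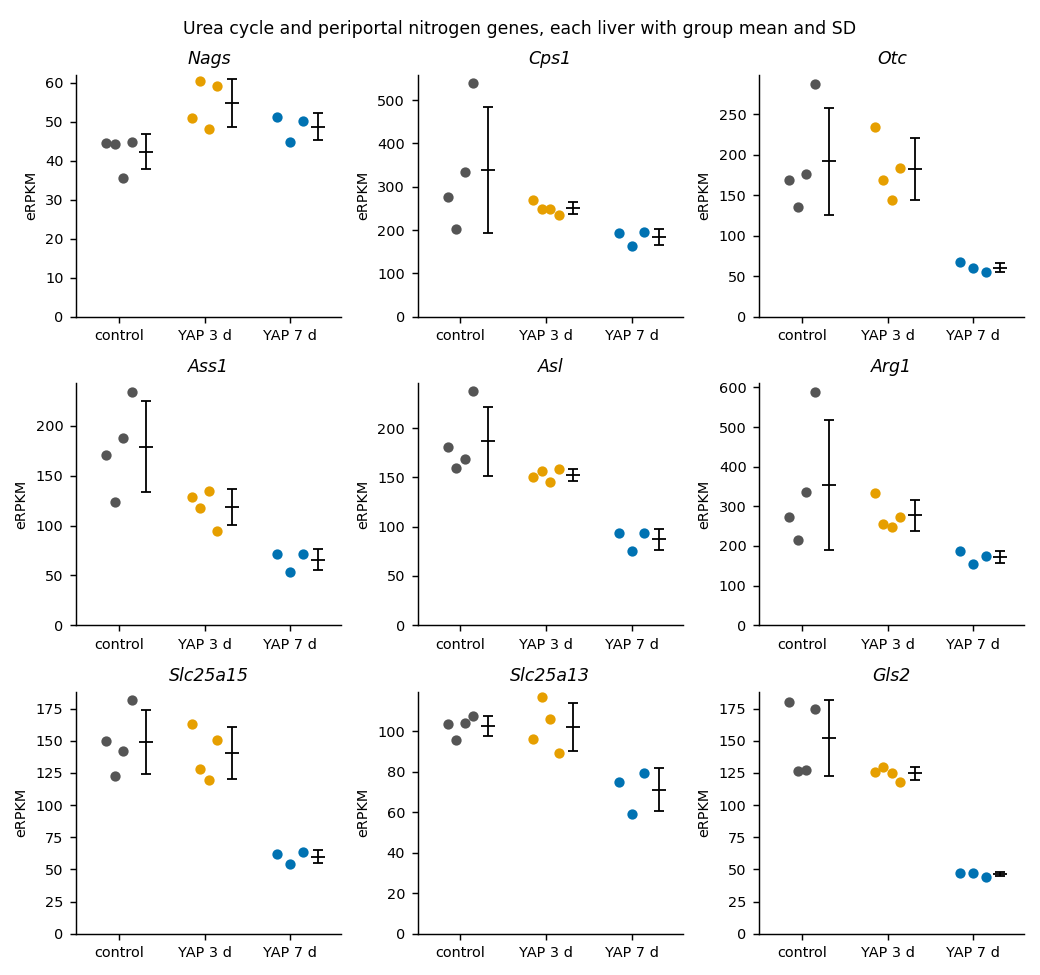
eRPKM of each of the 9 genes in each liver (y axis from 0; points, 1 liver each; 4 control, 4 YAP 3-day and 3 YAP 7-day livers), with the group mean and SD as bars. Gls2, Otc and Slc25a15 at 7 days lie far below both other groups, whereas the control points of Cps1 and Arg1 spread over a wide range and Nags stays between 35.7 and 60.5.

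The mitochondrial entry of the cycle showed the widest contrast among its enzymes. Nags, N-acetylglutamate synthase (chromosome 11, 102006827 to 102010791, plus strand, mm9), had 44.5, 44.2, 35.7 and 44.8 eRPKM in controls 1 to 4, 51.0, 60.5, 48.0 and 59.2 at 3 days, and 51.2, 44.8 and 50.1 at 7 days. All 4 livers at 3 days lay above all controls, and the 7-day livers overlapped them. The log2 fold change was 0.37 (SE 0.13) at 3 days (limma adjusted p = 0.282, exact permutation p = 0.0286, the smallest possible, and 0.0482 adjusted over 27 tests). That adjustment pools all 3 comparisons. The smallest p was reached by 2 members at 3 days, 6 at 7 days against control and 8 from 3 to 7 days. The value of 0.0482 thus leans on the 7-day tests. At 7 days it was 0.20 (SE 0.14, limma adjusted p = 0.282), turning to -0.063 with median-ratio size factors. The exons of Nags share 443 bases with Gm11586, and the counting did not use strand, so a part of these reads may belong to that gene.

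Cps1, carbamoyl-phosphate synthetase 1, fixes ammonia in the first committed step (chromosome 1, 67169600 to 67277833, plus strand). Controls had 276, 202, 334 and 540 eRPKM, 3-day livers 270, 250, 248 and 235, and 7-day livers 194, 164 and 195. The 7-day livers all lay below the lowest control, but by little, since control 2 stood at 202. The log2 fold change at 7 days was -0.79 (SE 0.26), which did not pass (limma adjusted p = 0.0294, exact permutation p = 0.0571).

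Otc, ornithine transcarbamylase, joins carbamoyl phosphate to ornithine and is X-linked (chromosome X, 9829431 to 9898150, plus strand). Its values were 169, 136, 176 and 288 eRPKM in controls, 234, 168, 144 and 184 at 3 days, and 67.0, 59.99 and 55.1 at 7 days. Controls and 3-day livers overlapped widely, and every 7-day liver lay far below both. The 7-day change was -1.60 on the log2 scale (SE 0.24, limma adjusted p = 0.00022), that is 3.04-fold, with 3 of 3 livers below all controls. Across the whole table, 5.77% of tested genes were called lower and 18% higher at 7 days, and 19% were called lower of the 2916 genes with a mean of at least 30 eRPKM, a range that holds all 9 members. The share of 5 in 9 is to be read against these. Because whole livers were measured, fewer periportal hepatocytes and less RNA of these genes per cell cannot be told apart.

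Of the cytosolic enzymes, Ass1 and Asl fell at 7 days and Arg1 did not pass. Ass1, argininosuccinate synthase, couples citrulline to aspartate (chromosome 2, 31325727 to 31376192, plus strand). It had 171, 124, 188 and 234 eRPKM in controls, 128, 118, 135 and 94.1 at 3 days, and 71.8, 53.5 and 71.6 at 7 days. At 3 days 2 of 4 livers lay below all controls, and at 7 days 3 of 3 did. The 3-day change of -0.57 (SE 0.20) did not pass (limma adjusted p = 0.268, exact permutation p = 0.0857). The 7-day change of -1.42 (SE 0.21) did (adjusted p = 0.00026).

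Asl, argininosuccinate lyase, releases arginine (chromosome 5, 130487128 to 130501002, minus strand). Controls had 181, 159, 168 and 237 eRPKM, 3-day livers 151, 156, 145 and 158, and 7-day livers 93.6, 74.998 and 93.3. All 4 livers at 3 days lay below all controls, some by a narrow margin. The 3-day change was -0.27 (SE 0.15, limma adjusted p = 0.491, exact permutation p = 0.0286). With all 3 livers lower, the 7-day change of -1.08 (SE 0.16) passed (adjusted p = 0.00024). Only Nags and Asl had 3-day groups that did not overlap the controls, against 5.64% of all tested genes.

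Arg1, liver arginase, splits arginine into urea and ornithine (chromosome 10, 24635014 to 24647276, minus strand). It had 272, 216, 336 and 589 eRPKM in controls, 333, 255, 247 and 273 at 3 days, and 187, 155 and 175 at 7 days. Control 4 stood far above the rest, and the 7-day livers lay below all controls without a wide gap. The log2 fold change of -0.93 (SE 0.27) at 7 days did not pass (limma adjusted p = 0.0172, exact permutation p = 0.0571). Macrophages can also express Arg1, and the 7 macrophage markers in the table summed to 235 to 481 eRPKM in controls and 883 to 945 at 7 days. The defining markers were above 0 in every group, among them Csf1r, the receptor for macrophage colony-stimulating factor, with 26.1 eRPKM (SD 8.04) in controls and 89.8 (SD 6.32) at 7 days. The part of macrophages in the level of Arg1 was not tested.

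Of the carriers, Slc25a15 fell and Slc25a13 did not pass. Slc25a15, the mitochondrial ornithine transporter (chromosome 8, 23486026 to 23509093, minus strand), had 150, 122, 142 and 182 eRPKM in controls, 163, 128, 120 and 150 at 3 days, and 62.3, 54.0 and 63.5 at 7 days. The 7-day values were tight and lay below all other livers. The change at 7 days was -1.30 (SE 0.17, limma adjusted p = 8.3e-05), a fold of 2.46. Slc25a13, citrin, exports the aspartate used by Ass1 (chromosome 6, 5991219 to 6167173, minus strand). It had 104, 96.0, 104 and 108 eRPKM in controls, 96.1, 117, 106 and 89.4 at 3 days, and 74.9, 59.4 and 79.6 at 7 days. All 7-day livers were again lower than all controls, but the change of -0.54 (SE 0.15) did not pass, since its limma adjusted p of 0.0122 was above 0.01 (exact permutation p = 0.0286).

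Gls2, the glutaminase that releases ammonia from glutamine in periportal hepatocytes, showed the largest fall of the set (chromosome 10, 127631513 to 127647060, plus strand). Controls had 180, 126, 127 and 174 eRPKM, 3-day livers 126, 130, 125 and 118, and 7-day livers 47.4, 47.5 and 44.3. The 3-day livers sat at the lower edge of the controls and the 7-day livers far below. The 3-day change of -0.27 (SE 0.14) did not pass (limma adjusted p = 0.490). The 7-day change was -1.68 (SE 0.16, adjusted p = 9.7e-06), or 3.21-fold. Its exons share 97 bases with Spryd4.

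Over the set, the median log2 fold change was -0.26 at 3 days, with 8 of 9 signs negative, and -1.08 at 7 days. The 9 genes together took 0.326% to 0.651% of the reads of a control liver. The range was 0.357% to 0.416% at 3 days and 0.199% to 0.235% at 7 days, so the 7-day livers lay below all others. At 3 days 0 of 9 genes passed, and 0.0421% of all tested genes did in either direction. With limma, 2 of the 9 had an unadjusted p under 0.05 at 3 days (Ass1, lower, and Nags, higher). So had 1718 of the 14244 tested genes. Limma-voom on recovered reads also called 0 of the 9. At 7 days 8 of the 9 groups lay wholly below the controls, against 13.3% of all tested genes. Such a share is not given for genes with a mean of at least 30 eRPKM, which were called lower more often (19% against 5.77%). The plot of the changes sets both times beside each other.

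**Figure D2:**
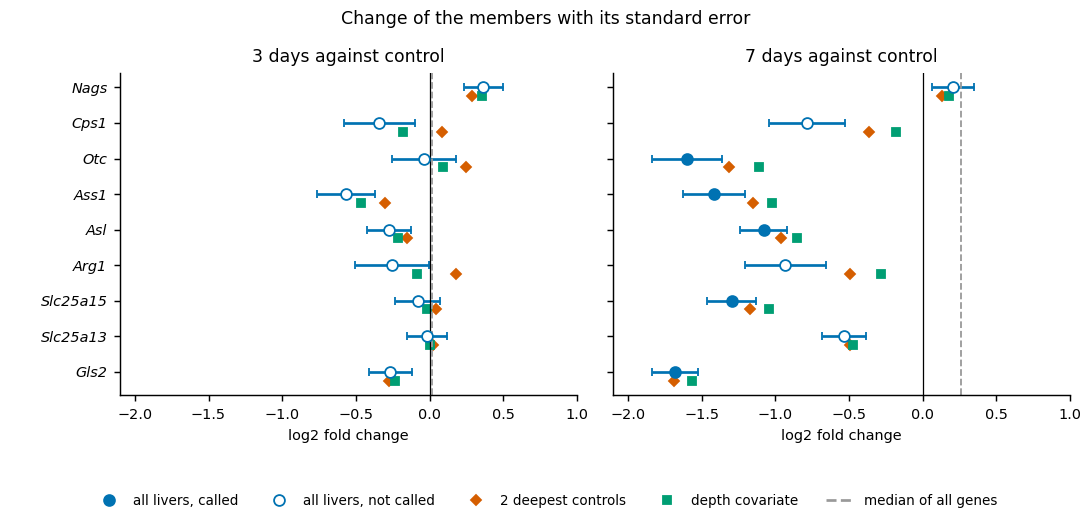
Log2 fold change (x axis) of each gene against control at 3 days and at 7 days, as points with the standard error from limma. Filled circles passed the threshold, diamonds use only the 2 deepest controls, squares add depth as a covariate, and the dashed line is the median of all genes (0.018 and 0.26). At 7 days the filled points of Otc, Ass1, Asl, Slc25a15 and Gls2 stay at or beyond -0.86 in all 3 forms, whereas Cps1 and Arg1 move toward 0.

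The spread of Cps1 and Arg1 among controls moved with library depth. Control 2, the deepest, held 4.39 times the reads of control 4, the shallowest. On Nags it held 4.34 times the reads (530 against 122) and on Slc25a13 3.93 times. On Gls2 the ratio was 3.19, on Slc25a15 2.96, on Asl 2.95, on Ass1 2.32 and on Otc 2.08. On Cps1 it was 1.65 (5393 against 3277) and on Arg1 1.61 (1807 against 1122). The ratio was lowest on the most abundant members, Cps1 and Arg1, and highest on the least abundant, Nags, without following the order of levels strictly in between. Alb, the albumin gene, had 2417 to 3102 reads in every library. The share of Cps1 and Arg1 in shallow libraries was therefore high. How this came about was not tested, and the handling of duplicate reads is not given in the sources used here.

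The 7-day livers were sequenced about as deeply as control 2, which allows values at similar depth to be set side by side. Gls2 had 126 eRPKM in control 2 and 2.66-fold to 2.85-fold less in the 7-day livers. Otc was 2.03-fold to 2.46-fold lower, Slc25a15 1.93-fold to 2.27-fold, Ass1 1.72-fold to 2.31-fold and Asl 1.70-fold to 2.12-fold. Slc25a13 was 1.21-fold to 1.62-fold lower, Arg1 1.15-fold to 1.39-fold and Cps1 1.04-fold to 1.24-fold. These are values against 1 liver, with no test. Alb, with 2417 to 3102 reads in every library, was 1.04-fold to 1.14-fold lower by the same measure. Where reads grow less than depth, as on Cps1 and Arg1, such folds may understate a difference, which was not tested. With depth as a covariate, the 7-day change was -0.19 for Cps1 (limma adjusted p = 0.226) and -0.28 for Arg1 (adjusted p = 0.0664). The 5 called genes stayed called in that fit, at -0.86 for Asl, -1.03 for Ass1, -1.04 for Slc25a15, -1.11 for Otc and -1.57 for Gls2. Leaving out control 2 had the opposite effect on Cps1 and Arg1, which then passed (-1.002, adjusted p = 0.00431, and -1.14, adjusted p = 0.00441).

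**Figure D3:**
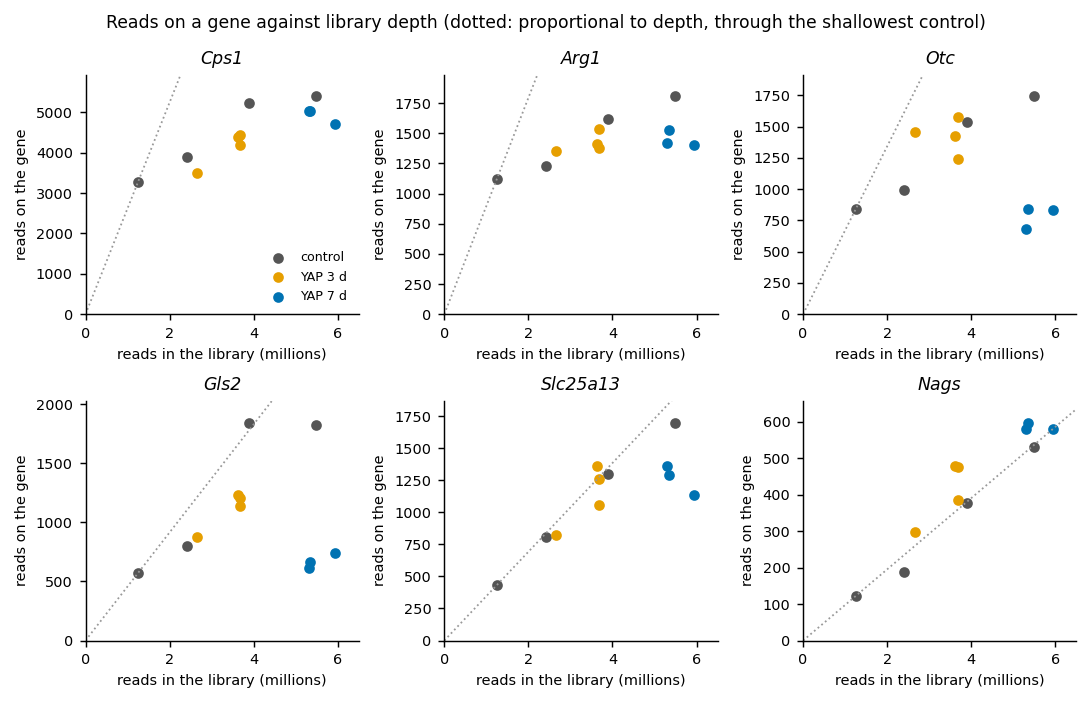
Reads on a gene (y axis) against reads in the library (x axis) for 6 of the genes, 1 point per liver coloured by group. The dotted line is proportional to depth through the shallowest control. Nags follows it, Cps1 and Arg1 bend away from it in every group, and the 7-day points of Otc (683 to 838 reads) lie below all controls. Those of Gls2 (617 to 741 reads) lie below 3 of the 4 controls and above the shallowest (572).

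In controls the order of levels per length ran Arg1, Cps1, Otc, Asl, Ass1, Gls2, Slc25a15, Slc25a13 and Nags, from a mean of 353 eRPKM (SD 165, n = 4) to 42.3 (SD 4.43). Neighbours from Arg1 down to Slc25a15 overlapped in range, although Cps1 was above Otc within each of the 4 livers, while Slc25a13 lay below Slc25a15 and Nags below Slc25a13 in 4 of 4 livers. At 7 days the order was Cps1, Arg1, Asl, Slc25a13, Ass1, Otc, Slc25a15, Nags and Gls2, from 184 (SD 17.9, n = 3) to 46.4 (SD 1.84). Gls2 went from the sixth place to the last, with a range that overlapped that of Nags. Slc25a15, Otc and Ass1 came to lie within the range from 53.5 to 71.8. In the shallowest and the deepest control, Arg1 had 589 and 216 eRPKM, Cps1 540 and 202, and Nags 44.8 and 44.2. The part of depth in these orders was not tested.

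From 3 to 7 days the same 5 genes passed as against control, all lower, where 5.31% of all tested genes were called lower. Both comparisons use the same 7-day livers. Over genes with a mean of at least 30 eRPKM the median from 3 to 7 days was -0.31, against 0.26 over all tested genes. The share called lower among these abundant genes is not given. The steps were -1.56 (SE 0.24) for Otc, -1.41 (SE 0.16) for Gls2, -1.21 (SE 0.17) for Slc25a15, -0.85 (SE 0.21) for Ass1 and -0.81 (SE 0.16) for Asl, with limma adjusted p from 4.0e-05 to 0.00881. Otc, Gls2 and Slc25a15 passed in all 28 alternatives, Asl in 25 and Ass1 in 11. Arg1 stood at -0.68 (adjusted p = 0.0701), Slc25a13 at -0.52 (0.0164), Cps1 at -0.45 (0.192) and Nags at -0.16 (0.391). After quantile normalization Cps1 turned to 0.16 and Nags to 0.012.

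For 3 of the genes a related gene encodes a second isoform, and the balance between both was compared in each liver. Slc25a12, aralar, the second aspartate carrier, had 8.13 to 9.20 eRPKM in controls and 13.5, 13.9 and 15.7 at 7 days. Its own change of 0.70 did not pass (limma adjusted p = 0.0244). Its share beside Slc25a13 went from 7.78% (SD 0.726) to 16.9% (SD 1.90), a log2 difference of 1.24, with 3 of 3 livers above all controls (exact permutation p = 0.0286, the smallest possible, and 0.0490 adjusted over 12 tests). Arg2, the mitochondrial arginase, had 0.853 to 1.12 eRPKM in controls and 1.53, 6.79 and 0.903 at 7 days. These values rest on 2 to 9 reads in controls and on 12, 59 and 7 at 7 days, so 1 liver carries the group mean. The ratio of Arg2 to Arg1 was higher by 1.78 (exact permutation p = 0.0286, or 0.0490 adjusted), and Arg2 itself did not pass (0.85, limma adjusted p = 0.176). Arg1, the other side of this ratio, changed by -0.93, and by less with depth as a covariate. The paralog ratios were not compared with depth as a covariate. Slc25a2, the second ornithine carrier, had 0 to 15 reads per library. Its ratio to Slc25a15 was higher by 1.47 at 7 days (exact permutation p = 0.0571, or 0.0857 adjusted), while its own change was 0.17, and -0.26 with the 2 deepest controls. At 3 days the 3 ratios differed from control by -0.25 to 0.20 (exact permutation p from 0.314 to 0.714).

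**Figure D4:**
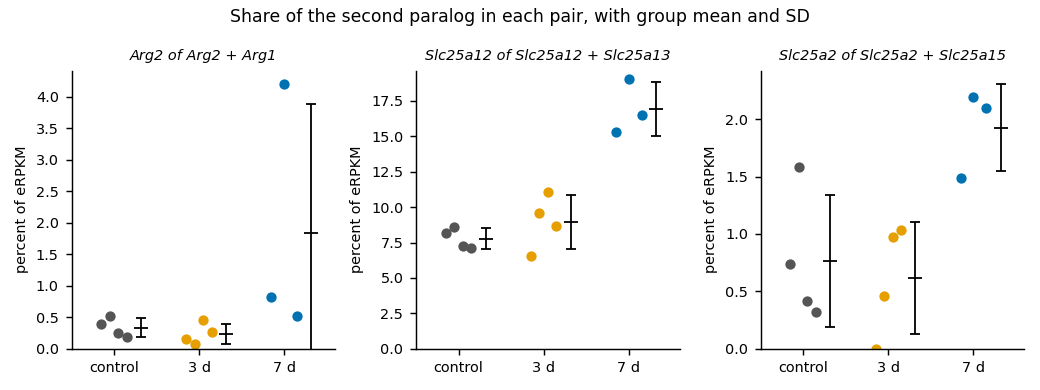
Share of the second paralog in the summed eRPKM of each pair, in percent (y axis from 0), in each liver, with the group mean and SD (the SD bar of Arg2 at 7 days is clipped at 0). Slc25a12 goes from 7.78% in controls to 16.9% at 7 days, while Arg2 at 7 days is carried by 1 liver.

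Among 24 other genes of nitrogen handling, 10 fell and 3 rose at 7 days, with a median of -0.69. Of all tested genes 5.77% were called lower and 18% higher, and 19% lower of those with a mean of at least 30 eRPKM. The members of the list that moved do different things. Slc1a2, a glutamate transporter, fell from 69.9 eRPKM (SD 8.64, n = 4) to 1.21 (SD 0.522, n = 3), a log2 fold change of -5.396. Rhbg, an ammonium transporter, changed by -3.19, and Oat, ornithine aminotransferase, by -2.41. Aldh18a1, which makes the proline and ornithine precursor pyrroline-5-carboxylate, rose by 2.26 from 0.893 eRPKM (SD 0.379) to 6.20 (SD 2.001). With the 2 deepest controls, 8 of these genes fell and 2 rose. Glul, glutamine synthetase, which takes up ammonia at the central vein, had 167, 189, 298 and 318 eRPKM in controls, 191, 186, 167 and 178 at 3 days, and 69.6, 74.9 and 67.6 at 7 days. Every 7-day liver lay below every other liver, with a change of -1.72 (SE 0.21, limma adjusted p = 6.2e-05).

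Genes of both zones of the lobule were lower at 7 days, when 5.77% of all tested genes were called lower. This share was 19% among genes with a mean of at least 30 eRPKM. Of 16 other periportal genes 10 fell and 0 rose, with a median of -1.03, close to the -1.08 of the 9 genes. Hsd17b6, a steroid dehydrogenase, changed by -3.23, Hal, histidine ammonia-lyase, by -2.44, Sult5a1, a sulfotransferase, by -2.36 and G6pc, glucose-6-phosphatase, by -2.11. Of 16 pericentral genes 13 fell and 0 rose, with a median of -2.38. Cyp1a2 and Cyp2a5, both cytochrome P450 enzymes, changed by -3.43 and -3.29. Slc1a2, Rhbg, Oat and Glul are on both the pericentral and the nitrogen list. With depth as a covariate the medians were -0.63 for periportal and -2.18 for pericentral genes, with 7 and 14 called lower.

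Markers of the cell types moved at 7 days too. The 9 hepatocyte markers in the table had a median of -0.88 with 1 called, Ttr, transthyretin, at -1.40, and this median was -0.048 after quantile normalization and -0.11 with depth as a covariate. The macrophage list had 5 of 7 genes higher, where 18% of all tested genes were called higher. Its median was 1.49, and the scavenger receptors Marco (3.47) and Cd68 (2.61) led it. With depth as a covariate 3 of the 7 were called, in female livers 3, and after quantile normalization 7. The part of such shifts in cell makeup in the fall of the urea cycle genes was not tested. The plot of all lists shows their spread.

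**Figure D5:**
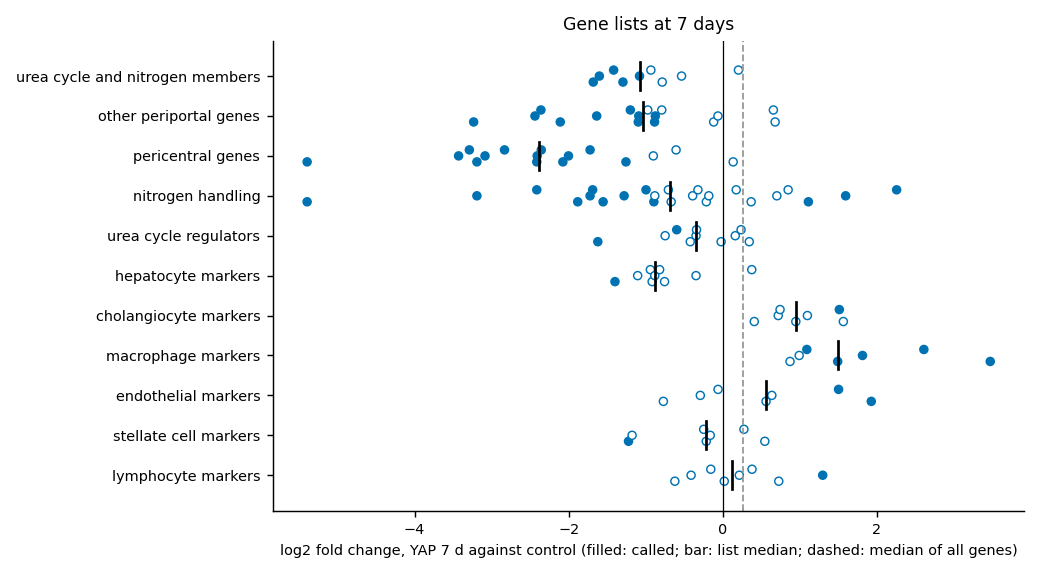
Log2 fold change at 7 days against control (x axis) of every tested gene in each list (rows). Filled points passed the threshold, black bars are list medians, and the dashed line is the median of all genes (0.26). The medians run from -2.38 for pericentral genes over -1.08 for the urea cycle and nitrogen members to 1.49 for macrophage markers.

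Likeness of profile was measured as the root mean square difference, over the 11 livers, of log2 values centred on the control mean, among 12560 other genes. Nearest to Cps1 were Fga, a fibrinogen chain (0.0850), C3, a complement protein (0.0947), Cat, catalase (0.101), Vtn, vitronectin (0.107), and Zfp488 (0.116). Fga, C3, Cat and Vtn had means of 244 to 326 eRPKM, whereas Zfp488 had a mean of 21.2. The part of depth in the likeness of these profiles was not tested. Nearest to the mean of the 9 genes were Gcdh (0.105), Aldh6a1 (0.107), Adk (0.107), Ephx2 (0.108) and Aldh8a1 (0.110). Within the set, Cps1 and Arg1 were the most alike pair (0.128), and Nags and Gls2 the least (1.07).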

How the data were processed

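Total RNA of 11 mouse livers (4 control, 4 at 3 days, 3 at 7 days) was sequenced after TruSeq v2 library preparation. The authors masked low-quality bases, aligned reads without strand to mm9 (TopHat2 2.0.8) and counted them on genes (featureCounts 1.4.5-p1, per the submitters' processing notes, which also name SAMtools and DESeq2). The gene annotation and the handling of duplicates are not given in the sources used here. The deposited unit is eRPKM, an exonic RPKM that the authors computed within each library. The 3 columns of the authors' own 7-day comparison (mean, log2 fold change and adjusted p) were not used. Rows named by spreadsheet dates (4) were kept apart.

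Whole reads were recovered from the eRPKM steps (99.99% of 177553 values above 0 lay within 0.1 of a whole read), giving the depths. The deposited values came as RPKM, so the planned log-scale test was used. Genes reaching 0.5 eRPKM in 3 or more livers were tested with limma 3.58.1 (R 4.3.3; eBayes with trend) on log2(eRPKM + 0.5), all livers in 1 fit, no covariate, Benjamini-Hochberg over 14244 genes. Fold changes on this scale understate those of low genes. A gene was called where its adjusted p was under 0.01 and its log2 fold change beyond 0.5 in either direction. Members also got exact two-sided permutation tests (70 or 35 splits, smallest p 0.0286). Limma and permutation steps were tested on simulated data. The limma step did not meet the mark first set for it, since nearly all simulated 4-fold changes at 7 days were called but most 2-fold ones were not. The mark was then lowered to recovery of the 4-fold changes, of the fold sizes and of the signs, a choice made after that outcome was seen. A gene not called here may thus still have changed moderately. Other tools were Python 3.11.15 with pandas 2.3.3, numpy 2.4.6, matplotlib 3.10.9 and scipy 1.17.1.

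The members and all lists (nitrogen handling, other periportal, pericentral, regulators, and hepatocyte, cholangiocyte, macrophage, endothelial, stellate cell, lymphocyte and pancreas markers) were chosen with earlier results of these data known. Named were all 9 members, Arg2, Slc25a12, Slc25a2 and Glul, up to 4 genes per list with the largest change among those called at 7 days, the 5 genes nearest in profile to Cps1 and to the mean of the members, and Yap1, Cyr61 and Ctgf. Csf1r falls under the macrophage list. Alb was added after its values were seen. GENCODE M1 (mm9) gave gene positions and overlaps, RefSeq the promoters. The p-values of the paralog ratios are adjusted over the 12 planned tests, of which 9 are given, and 1 pair and its gene are not reported here. Spearman correlations within groups were 0.945 to 0.976 (control), 0.922 to 0.964 (3 days) and 0.974 to 0.986 (7 days). Alternatives were pseudocounts of 1 and 0.1, other filters and scalings, other limma settings, limma-voom on recovered reads, a replicate block, covariates (Xist, label suffix MF, depth), female livers only, a looser call and leaving out each liver. The fit with the 2 deepest controls was added after the data were seen.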

Additional observations from a re-analysis of the deposited data

Results flagged for a closer look

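In the controls, Nags in liver 3 (35.7 eRPKM) lay apart from the other 3 (44.2 to 44.8), with 0.939 of the group's range as the gap to its nearest neighbour, more than Dixon's critical value for 4 livers allows. It was the 1 liver so marked among 26 groups of 4 examined (the 9 genes, the 3 paralogs and Glul, in controls and at 3 days), and chance marks about 1 in 20.

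Between 3 and 7 days the change passed its own test for 5 genes, which had not moved past the threshold by 3 days: Otc (-1.56), Gls2 (-1.41), Slc25a15 (-1.21), Ass1 (-0.85) and Asl (-0.81, limma adjusted p = 0.00232). Each had 3 of 3 livers at 7 days below all 4 at 3 days. The 7-day libraries were deeper (5306852 to 5932220 reads) than the 3-day ones (2658866 to 3677567), and all 3 were female, against 2 of 4 at 3 days. With depth as a covariate, Ass1 no longer passed (-0.56, adjusted p = 0.0263), nor among female livers (-0.79, adjusted p = 0.0504), where Asl did not pass either (-0.80, adjusted p = 0.0109).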

How the results depend on the processing

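The 5 genes called at 7 days against control (Gls2, Otc, Ass1, Slc25a15 and Asl) were called in all 29 alternatives, including female livers only and the 2 deepest controls, a choice made after seeing the data. At 3 days none of the 9 was called in any of 29. At 7 days Cps1 ranged from -1.06 (median-ratio size factors) to -0.017 (quantile normalization) and Arg1 from -1.20 to -0.18 under the same settings. Cps1 and Arg1 passed without control 2, Slc25a13 with median-ratio size factors (-0.80) and limma-voom (-0.53). With the looser call (adjusted p under 0.05, any fold), 8 members were lower. From 3 to 7 days, 3 members were called after quantile normalization, 3 in female livers and 3 to 6 on leaving out livers (3 without 7-day liver 2). The cause of these changes was not tested.

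Direction turned at 3 days for Arg1 (0.18 with the 2 deepest controls, -0.46 to 0.025 on leaving out livers, positive only without control 4) and Cps1 (0.083, 2 deepest controls). For Otc it was 0.026 after quantile normalization, 0.091 with depth as a covariate, 0.074 in female livers, 0.25 with the 2 deepest controls, and -0.19 to 0.17 on leaving out livers (0.067 without 3-day liver 3). Slc25a13 was 0.14 with the MF covariate, 0.00026 with depth, 0.027 with the 2 deepest controls, and -0.083 to 0.045 on leaving out livers (0.0059 at the least positive). Slc25a15 was 0.026 in female livers, 0.042 with the 2 deepest controls and -0.17 to 0.019 on leaving out livers (0.019 without control 4). At 7 days Nags was -0.063 with median-ratio size factors, and from 3 to 7 days Cps1 was 0.16 and Nags 0.012 after quantile normalization.

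Of all genes, 6 were called higher at 3 days with the main settings, and 3 without a filter, 12 with median-ratio size factors, 2 rescaled without the top 1%, 0 with 2 groups only, 0 without trend, 3 with the replicate block, 16 with the Xist covariate, 10 with the MF covariate, 1 with depth, 1 with limma-voom, 0 with the 2 deepest controls, 40 at an adjusted p under 0.05, and 0 to 53 on leaving out livers (53 without 3-day liver 1). Called lower were 0, and 1 in female livers, 1 at an adjusted p under 0.05 and up to 2 on leaving out livers (1 or 2 without controls 1 or 3 or 3-day livers 1 or 3). At 7 days 822 were lower and 2561 higher. Lower were 1254 with median-ratio size factors, 1785 after quantile normalization, 1421 at an adjusted p under 0.05 and 469 to 518 without 7-day livers 3 or 1. Higher were 1099 with depth, 1523 in female livers, 1406 with the 2 deepest controls, 3969 at an adjusted p under 0.05 and 1588 to 1671 without 7-day livers 3 or 2. Leaving out any liver gave 469 to 914 lower and 1588 to 2770 higher. From 3 to 7 days 756 were lower and 1997 higher. Lower were 1181 with median-ratio size factors, 1404 after quantile normalization, 401 in female livers, 1464 at an adjusted p under 0.05 and 364 to 1064 on leaving out livers (364 to 486 without 3-day liver 4 or any 7-day liver). Higher were 1326 with the Xist covariate, 1091 with depth, 1023 in female livers, 3621 at an adjusted p under 0.05 and 1048 to 2619 on leaving out livers (1048 to 1213 without any 7-day liver).

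The paralog ratios kept their sign at 7 days throughout, but in the settings below they lost an adjusted p under 0.05. With all livers kept, the adjusted p was 0.0686 to 0.129 with a pseudocount of 0.1 and 0.114 to 0.446 after quantile normalization, and the cause was not tested. With fewer livers in a comparison, fewer splits raise its smallest p. The adjusted p depends on all 12 tests together, so it also rose in comparisons that kept all their livers. Without control 1, the adjusted exact permutation p from 3 to 7 days was 0.0857 for Arg2, Slc25a12 and Slc25a2. With a pseudocount of 0.1 the differences from control and from 3 days were 1.93 and 2.46 for Arg2, 1.27 and 1.06 for Slc25a12, and 2.24 from 3 days for Slc25a2. After quantile normalization they were 0.58 and 0.88, 0.51 and 0.29, and 0.95. In female livers they were 1.54 and 1.55, 1.21 and 0.88, and 0.997. On leaving out livers they were 1.005 to 2.28 and 1.24 to 2.51 for Arg2 (1.005 and 1.24 without 7-day liver 2), 1.13 to 1.32 and 0.90 to 1.16 for Slc25a12, and 1.23 to 1.96 for Slc25a2. At 3 days the ratio turned for Slc25a2 (0.15 in female livers, -0.50 to 0.24 on leaving out livers, 0.092 without control 2).

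The replicate numbers in the labels are shared between groups. Deviations from the group means of same-numbered livers correlated at -0.222 to 0.269, with 2 of 10 pairs over 0.1. Of the 11 livers, 2 correlated best with their own number. Such correlations cannot show whether same-numbered livers share a litter or a day. With the replicate block, 5 members were lower at 7 days, 0 at 3 days, and 4 from 3 to 7 days, where Ass1 (-0.83, limma adjusted p = 0.0160) did not pass.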

Other observations

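Among 10 regulators of the urea cycle, 2 fell at 7 days and 0 rose, with a median of -0.34. Of all tested genes 5.77% were called lower, and 19% of those with a mean of at least 30 eRPKM. With depth as a covariate, in female livers and with the 2 deepest controls, 1 of the 10 was called. Gcgr, the glucagon receptor, had 84.2 eRPKM (SD 7.82, n = 4) in controls, 83.6 (SD 11.5, n = 4) after 3 days and 27.1 (SD 3.34, n = 3) after 7, a change of -1.62 (SE 0.15; limma adjusted p = 9.7e-06). It fell by 1.52 to 1.89 under the scaling, depth and sex alternatives and was called in each of them. Nr3c1, the glucocorticoid receptor, changed by -0.60 (adjusted p = 0.00855), a call lost in female livers, with depth as a covariate and with the 2 deepest controls.

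Of the other marker lists, 1 of 7 cholangiocyte genes rose at 7 days (Krt7, a keratin, by 1.51, from 0.399 to 1.92 eRPKM), where 18% of all tested genes were called higher. Of 7 endothelial genes 2 rose (Lyve1 by 1.93 and Cdh5 by 1.504), of 7 stellate cell genes 1 fell (Reln, by 1.22), and of 8 lymphocyte genes 1 rose (Cd4, by 1.30). The list medians were 0.95 for cholangiocyte, 0.56 for endothelial, -0.21 for stellate cell and 0.12 for lymphocyte genes. Over all tested genes the median was 0.26. The calls of Krt7, Lyve1 and Cd4 were lost with depth as a covariate and with the 2 deepest controls. Quantile normalization also lost Krt7 and Cd4, median-ratio size factors lost Lyve1 and Cd4, and female livers only lost Cd4. The 5 pancreas genes summed to at most 1.31 eRPKM in any liver and were not tested.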
